A study of Mus musculus with 6 samples.

Results

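The genes of glucose uptake, glycolysis, the pentose phosphate pathway and glycogen metabolism were examined in inguinal white adipose tissue (iWAT), a subcutaneous fat depot, of mice lacking ZIP13 (Zip13-KO) and of WT littermates. The set held 41 genes, listed by name from textbook pathways, and each was read from array probes whose annotation is a RefSeq transcript of that gene. All 41 had such a probe and all 41 passed the filter on dim probes, among 15314 genes tested in all. Adipocytes take up glucose through an insulin-responsive transporter, trap it with hexokinase, and send it through glycolysis toward lactate, acetyl-CoA for fatty acid synthesis and glycerol for triglyceride. The pentose phosphate pathway branches off at glucose-6-phosphate and yields the NADPH that fatty acid synthesis uses. Glycogen is a small glucose store in fat that is known to be built and broken down during thermogenic activation. Most of these steps are served by several isoforms with their own tissue distributions, so that the genotypes could be compared both by pathway and isoform by isoform.

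The WT and Zip13-KO groups each had 3 samples of iWAT, and each sample was hybridised to 1 Agilent one-colour array. Zip13-KO mice lack exons 6 to 8 of Slc39a13, which encodes the zinc transporter ZIP13, and carry a neomycin cassette in their place in every tissue, so effects outside fat are included. Both groups were on a C57BL/6J background after at least 7 generations of backcrossing, and the mice were 10 weeks old. A standard and a high-fat diet are described for the series without stating which the array mice ate, and the sex is not given. Nothing states that each array is a separate animal, and the p-values then measure only the spread between these samples.

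The level of a gene is the log2 intensity of its brightest probe after quantile normalization between arrays, and levels of different genes are not compared because probes differ in brightness. A gene was called when the limma adjusted p was under 0.05 and the change was more than 1.5-fold, which is 0.58 on the log2 scale. Slc39a13 had a level of 10.96 ± 0.30 (SD, n = 3) in WT and 6.63 ± 0.15 in Zip13-KO, a log2 fold change of -4.33 ± 0.17 (SE; adjusted p = 0.00129). Adipocyte markers were present on every array. All 6 arrays lay on 1 slide and were scanned together, and no spot was saturated. WT arrays lay in row 1, columns 1 to 3, and Zip13-KO arrays in row 1, column 4, and row 2, columns 1 and 2. Genotype and slide position therefore cannot be told apart. Spots well above background made up 62.5% to 63.2% in WT and 58.8% to 60.4% in Zip13-KO. Zip13-KO replicate 3 had 1598 spots with outlying local background, against 0 to 86 on the other arrays. WT replicate 1 stood apart from the other WT arrays for the genes described here. It held the lowest WT value in 27 of the 41 genes and in 17 of the 19 that were called higher, and its adipocyte markers lay lowest in WT, at a median of -0.38 from the WT mean against 0.20 and 0.15.

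Transcripts for glucose handling were higher in Zip13-KO iWAT for 19 of the 41 genes and lower for 2, with Fbp2 among the 19 although it passed the filter on dim probes through Zip13-KO alone. By comparison, 10.3% of all genes tested were called higher and 8.37% lower. The median log2 fold change of the 41 genes was 0.59, against a median of -0.00041 over all genes tested. All 3 Zip13-KO arrays lay above all 3 WT arrays for 28 genes, Fbp2 among them, and below them for 5. Over all genes tested the genotypes did not overlap in 55.1%, with Zip13-KO above WT in 29.2% and below it in 25.9%. The rises covered the insulin-responsive glucose transporter, hexokinase 2 and a set of glycolytic enzymes. They also covered all 4 pentose phosphate genes of the set and 3 of its 6 glycogen genes. Of further genes tested outside the set, 2 of 8 for the pentose phosphate pathway and 6 of 21 for glycogen were called higher. The 2 falls in the set were Slc16a3 and Hk3. In whole tissue, fewer cells of a type and less RNA per cell cannot be told apart. Without WT replicate 1 the count of genes called higher was 14, and without Zip13-KO replicate 1 or Zip13-KO replicate 2 it was 7 in each case, with 2 genes called lower each time.

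**Figure D1:**
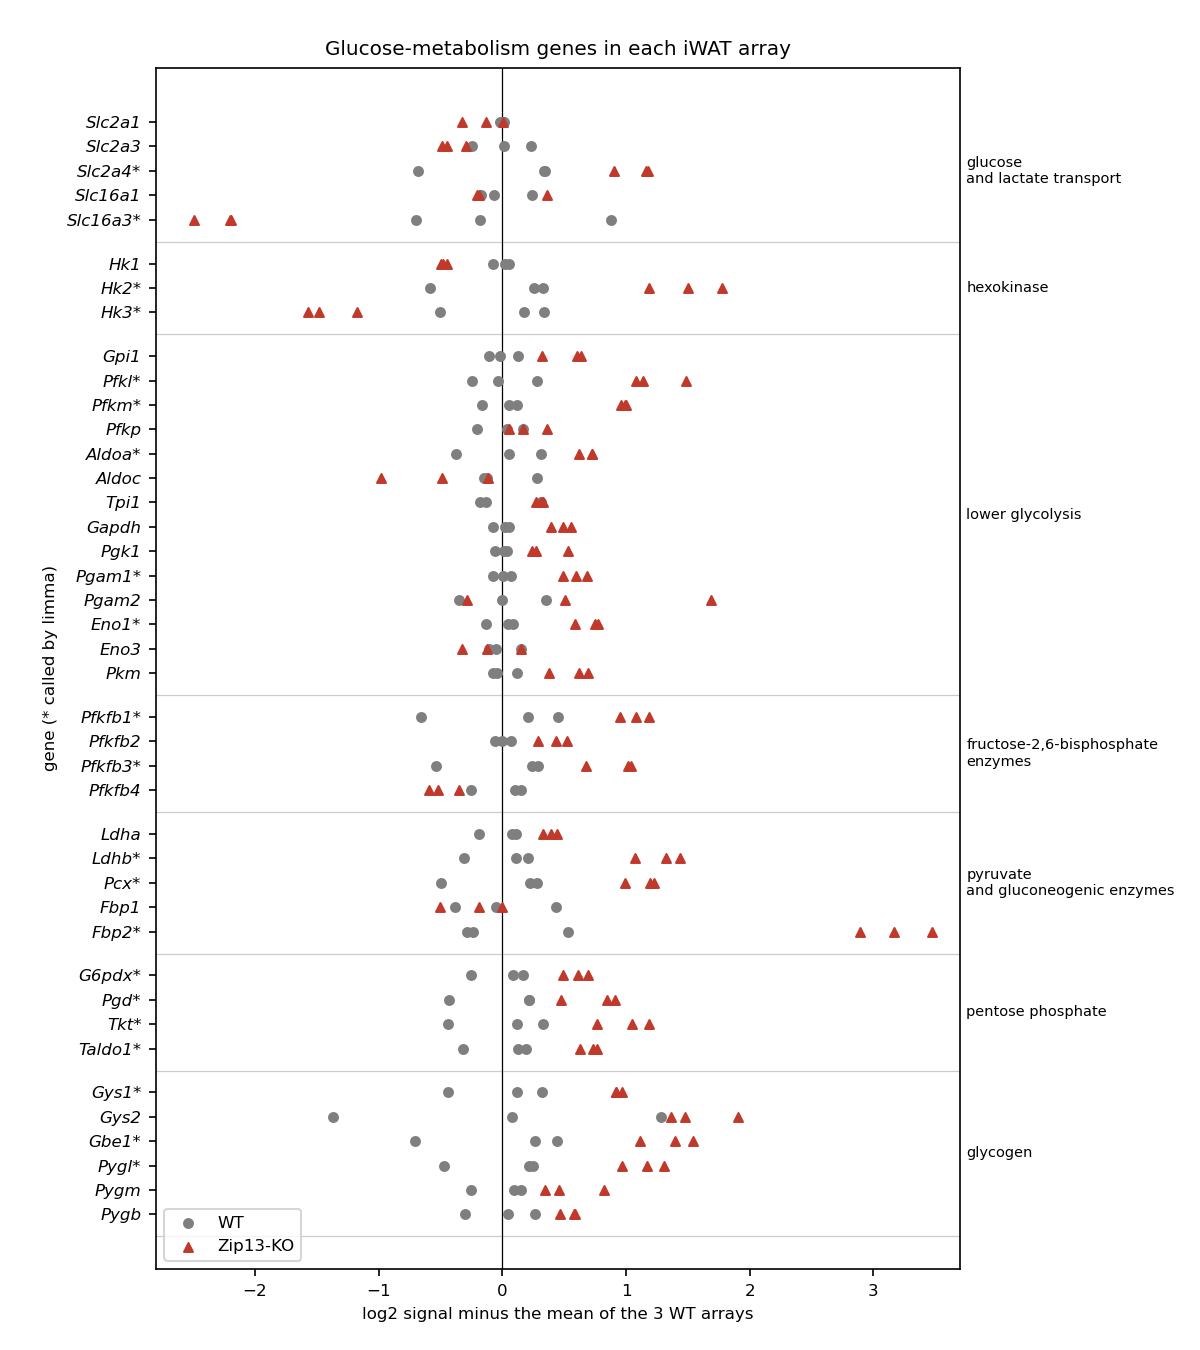
Each row is 1 of the 41 genes, grouped by pathway, and each point is 1 array (grey circles WT, red triangles Zip13-KO, n = 3 each); the horizontal axis is the log2 signal minus the WT mean of that gene, and an asterisk marks a call by limma. Triangles lie to the right of all circles in 28 genes and to the left in 5, and Slc16a3 lies farthest left; Fbp2, at the right, was not well above background in WT, so its distance from 0 is not a measured size.

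Glucose enters adipocytes mainly through GLUT4, encoded by Slc2a4, which insulin moves to the cell surface, whereas GLUT1 (Slc2a1) supplies basal uptake. GLUT3, encoded by Slc2a3, was measured beside them. Slc2a4 had log2 levels of 12.80, 13.82 and 13.82 in WT and 14.64, 14.66 and 14.38 in Zip13-KO. Its log2 fold change was 1.08 ± 0.29 (SE; limma adjusted p = 0.0337), and the call was lost without Zip13-KO replicate 1, 2 or 3, where the adjusted p was 0.102, 0.0990 and 0.0688. The other 2 glucose transporters were not called. Slc2a1 had a log2 fold change of -0.15 ± 0.10 (adjusted p = 0.277) and Slc2a3 one of -0.41 ± 0.14 (adjusted p = 0.0621), with all Zip13-KO arrays below the WT arrays for Slc2a3.

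Lactate crosses the membrane through monocarboxylate transporters. Slc16a3 encodes MCT4, the exporter of highly glycolytic cells, and had log2 levels of 10.74, 9.68 and 9.16 in WT and 7.36, 7.65 and 7.67 in Zip13-KO. It fell by 2.30 on the log2 scale (SE 0.39; limma adjusted p = 0.0102), which is 4.91-fold, and the call held without each array in turn. Slc16a1, which encodes MCT1, differed by -0.01 ± 0.19 (adjusted p = 0.969), with overlapping arrays.

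Hexokinases phosphorylate glucose on entry, and of the 3 isoforms measured Hk2 was called higher and Hk3 lower. Hk2, the insulin-regulated isoform of fat and muscle, had log2 levels of 9.32, 10.17 and 10.24 in WT and of 11.41, 11.69 and 11.10 in Zip13-KO. The log2 fold change of Hk2 was 1.49 ± 0.28 (limma adjusted p = 0.0132), with an adjusted p of 0.0507 without Zip13-KO replicate 1. Hk3, an isoform mainly of myeloid cells, had levels of 9.90, 9.73 and 9.05 in WT and of 7.99, 8.08 and 8.39 in Zip13-KO. It fell by 1.41 (SE 0.24; adjusted p = 0.0102), and this call held without each array in turn. The broadly expressed Hk1 had levels of 11.68, 11.55 and 11.64 in WT and of 11.17, 11.12 and 11.14 in Zip13-KO, a log2 fold change of -0.48 ± 0.07 (adjusted p = 0.00798) that was smaller than the fold threshold. The arrays of the genotypes did not overlap in any of the 3, as in 55.1% of all genes tested.

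Markers of macrophages and neutrophils moved in the direction of Slc16a3 and Hk3. Of 14 tested markers, 11 were called lower and 0 were called higher, with a median log2 fold change of -1.35. Their summed linear signal ranged from 114320 to 158300 in WT and from 59770 to 75356 in Zip13-KO. The brightest of them were Csf1r and Marco, and the largest fall was that of Clec4d, a myeloid lectin, at -4.29. The median marker difference from the WT mean was 0.26, -0.08 and -0.19 in WT and -1.47, -1.35 and -0.93 in Zip13-KO. WT replicate 1 was highest among WT arrays for the markers, Slc16a3 and Hk3, and Zip13-KO replicate 1 was lowest of all arrays for these 3 measures. Slc2a6, a transporter of the same family that is known from macrophages, fell by 1.19 (SE 0.18; limma adjusted p = 0.00818). The part of myeloid cells in the changes of Slc16a3, Hk3 and Slc2a6 was not tested.

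**Figure D2:**
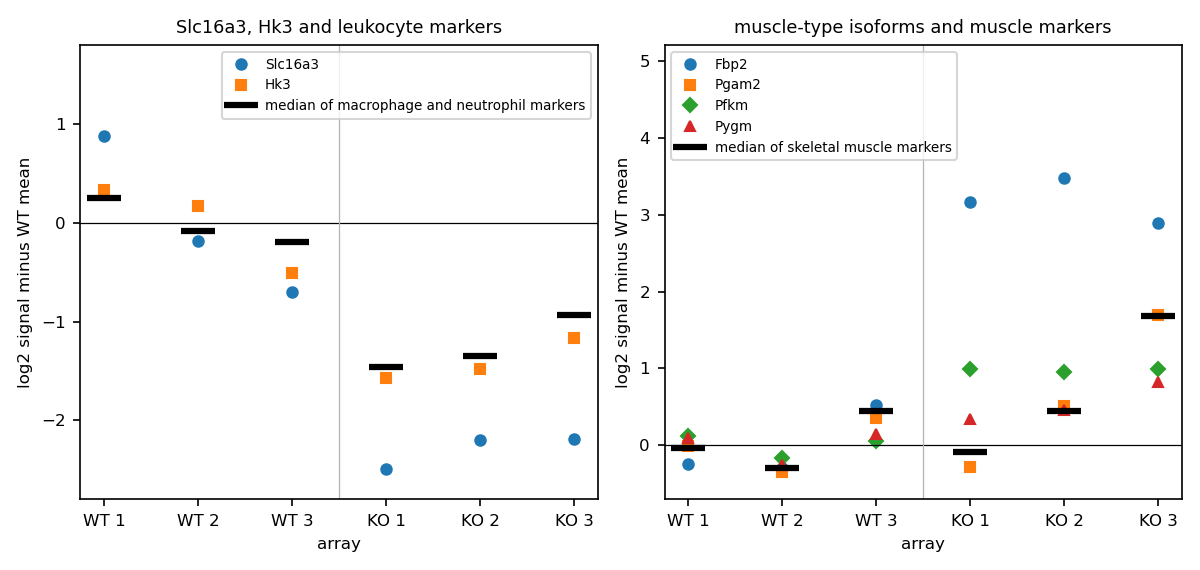
The horizontal axis gives the 6 arrays and the vertical axis the log2 signal minus the WT mean; coloured points are single genes and black bars are the median over a list of cell type markers. In the left panel Slc16a3, Hk3 and the median of the macrophage and neutrophil markers are all below their WT values on the 3 Zip13-KO arrays, and in the right panel Pgam2 lies close to the skeletal muscle markers on every array; the WT values of Fbp2 are not well above background.

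From glucose-6-phosphate to pyruvate, 5 of 14 enzyme genes were called higher in Zip13-KO and 0 were called lower, and 12 of 14 changed by more than 0 on the log2 scale (median 0.54). The count called was 3 without WT replicate 1 or Zip13-KO replicate 2, 6 without WT replicate 3 or Zip13-KO replicate 3, and 8 when arrays were scaled to the 75th percentile, where Gpi1, Gapdh and Pkm were added. The largest changes of the 14 were those of phosphofructokinase, the committed step. Pfkl, the liver-type subunit, had log2 levels of 10.13, 10.34 and 10.66 in WT and of 11.52, 11.86 and 11.46 in Zip13-KO, a log2 fold change of 1.24 ± 0.17 (limma adjusted p = 0.00707). Pfkm, the muscle-type subunit, had levels of 9.89, 9.61 and 9.83 in WT and of 10.77, 10.73 and 10.78 in Zip13-KO, a log2 fold change of 0.98 ± 0.09 (adjusted p = 0.00445). Pfkp, the platelet-type subunit, had a log2 fold change of 0.19 ± 0.13 (adjusted p = 0.284), and its arrays overlapped. A second, dimmer Pfkp probe changed by 0.48 without overlap, so the contrast of Pfkp with the other subunits depends on the probe. The calls of Pfkl and Pfkm held under every alternative setting tried.

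Aldoa, which encodes the main aldolase, and Eno1, which encodes the ubiquitous enolase, were also called higher. For Eno1 the log2 levels were 15.09, 15.27 and 15.32 in WT and 16.01, 15.98 and 15.82 in Zip13-KO, a log2 fold change of 0.71 ± 0.10 (limma adjusted p = 0.00689) that held under every alternative. For Aldoa they were 16.53, 16.96 and 17.22 in WT and 17.63, 17.63 and 17.52 in Zip13-KO, a log2 fold change of 0.69 ± 0.18 (adjusted p = 0.0288). The call of Aldoa was less stable. It was lost without WT replicate 1, where the log2 fold change was 0.52, without WT replicate 2 (adjusted p = 0.0601), and without Zip13-KO replicate 1, 2 or 3 (adjusted p = 0.0937, 0.0933 and 0.0656).

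Further steps changed by amounts on both sides of the fold threshold. Pgam1, a phosphoglycerate mutase, lay just above it with a log2 fold change of 0.59 ± 0.09 (limma adjusted p = 0.00739), and it lay below it without WT replicate 1 (0.55) or Zip13-KO replicate 2 (0.54). Pkm, which encodes the pyruvate kinase of most tissues outside the liver, lay just below the threshold at 0.56 ± 0.11 (adjusted p = 0.0142). Gpi1 (glucose-6-phosphate isomerase) had a log2 fold change of 0.52 ± 0.12, Gapdh one of 0.48 ± 0.08 and Pgk1 (phosphoglycerate kinase) one of 0.35 ± 0.10, with adjusted p-values of 0.0199, 0.009945 and 0.0423. In each of these genes every Zip13-KO array lay above every WT array, as in 29.2% of all genes tested. The 7 Gapdh probes that passed the filter changed by 0.40 to 0.70, so the place of Gapdh below the threshold depends on the probe. Tpi1, which encodes triose phosphate isomerase, had a log2 fold change of 0.30 ± 0.14 (adjusted p = 0.143) with overlapping arrays.

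Eno3, Aldoc and Pgam2, isoforms of lower glycolysis known from muscle or brain, were not called. Eno3, the muscle enolase, had a log2 fold change of -0.10 ± 0.14 (limma adjusted p = 0.610), and Aldoc, the aldolase of brain, one of -0.53 ± 0.24 (adjusted p = 0.134), and arrays overlapped in both. Eno2, the neuronal enolase, was not in the set of 41 and fell by 0.80 (SE 0.09; adjusted p = 0.00553). Pgam2, the muscle phosphoglycerate mutase, had log2 levels of 6.15, 5.81 and 6.51 in WT and of 5.87, 6.66 and 7.85 in Zip13-KO, a log2 fold change of 0.64 ± 0.50 (adjusted p = 0.347), and the highest value came from Zip13-KO replicate 3. Skeletal muscle markers were highest on the same array. Of 17 tested muscle markers, 13 changed by more than 0 on the log2 scale, with a median log2 fold change of 0.51. By call, 0 were higher and 1, Tnnt1, was lower. The changes ranged from -0.69 for Tnnt1 to 2.37 for Mb. The Mb probe was well above background on only 2 of the WT arrays, so the size of its change is uncertain. The summed linear signal of the muscle markers ran from 3691 to 6641 in WT and was 3972, 6429 and 13208 in Zip13-KO. The part of muscle RNA in the values of Pgam2 was not tested.

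Fructose-2,6-bisphosphate is the strongest known activator of phosphofructokinase, and the Pfkfb genes encode the bifunctional enzymes that make and remove it. Pfkfb3, the isoform with the highest ratio of kinase to phosphatase activity, had log2 levels of 13.36, 14.14 and 14.19 in WT and of 14.91, 14.94 and 14.57 in Zip13-KO, a log2 fold change of 0.91 ± 0.24 (limma adjusted p = 0.0335). Pfkfb1, known from liver and muscle, had levels of 10.87, 11.98 and 11.73 in WT and of 12.61, 12.48 and 12.71 in Zip13-KO, a log2 fold change of 1.07 ± 0.28 (adjusted p = 0.0318). Neither call held without Zip13-KO replicate 1, 2 or 3: the adjusted p was 0.105, 0.102 and 0.0559 for Pfkfb3 and 0.0934, 0.0782 and 0.0898 for Pfkfb1, and that of Pfkfb1 was also 0.0524 without WT replicate 3. Pfkfb2, the heart isoform, had a log2 fold change of 0.41 ± 0.09 (adjusted p = 0.0182) and Pfkfb4, first known from testis, one of -0.49 ± 0.13 (adjusted p = 0.0360). Both changes were smaller than the fold threshold, in opposite directions, and without overlap between the genotypes. Without WT replicate 3 the fall of Pfkfb4 was called, at -0.61.

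At the end of glycolysis, Ldhb was called higher and Ldha was not. Ldhb encodes the lactate dehydrogenase subunit that favours oxidation of lactate to pyruvate and had log2 levels of 11.51, 12.03 and 11.93 in WT and of 12.89, 13.26 and 13.15 in Zip13-KO. Its log2 fold change was 1.28 ± 0.17 (limma adjusted p = 0.00651), and the call held under every alternative. Ldha, which encodes the subunit that favours lactate production, had levels of 16.11, 16.42 and 16.38 in WT and of 16.70, 16.75 and 16.63 in Zip13-KO, a log2 fold change of 0.39 ± 0.10 (adjusted p = 0.0334) that was smaller than the fold threshold. The 3 Ldha probes that passed the filter changed by 0.39 to 0.54, and the brightest changed least.

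Pcx encodes pyruvate carboxylase, which makes oxaloacetate from pyruvate and in adipocytes feeds citrate export and glyceroneogenesis. It had log2 levels of 14.78, 15.50 and 15.55 in WT and of 16.50, 16.47 and 16.27 in Zip13-KO, a log2 fold change of 1.14 ± 0.22 (limma adjusted p = 0.0135). The adjusted p was 0.0544 when Zip13-KO replicate 1 was left out and 0.0528 when replicate 2 of that genotype was. Of the enzymes that reverse the phosphofructokinase step, Fbp1, the liver fructose-1,6-bisphosphatase, had a log2 fold change of -0.23 ± 0.23 (adjusted p = 0.465) with overlapping arrays.

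Fbp2, the muscle-type fructose-1,6-bisphosphatase, was measured in Zip13-KO only. Its log2 levels were 2.55, 2.50 and 3.32 in WT and 5.95, 6.26 and 5.68 in Zip13-KO. The probe was not well above background on any WT array, so WT has only a bound. It was well above background on all 3 Zip13-KO arrays. The fitted change had a limma adjusted p of 0.00409. Fbp2 in Zip13-KO lay 8.66-fold above the WT bound, as computed from the processed signal. It had passed the filter through Zip13-KO alone, so its call and p carry no support beyond the detection in one genotype. For this bound, WT values below the lowest signal found among probes well above background on the same array were raised to that signal. The size depended on how background was handled, so the 8.66-fold is not a lower limit under other corrections. The fitted log2 fold change was 3.17, and it was 0.93 with normexp background correction and 1.20 without any correction, with the call kept in both.

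All 4 pentose phosphate genes of the set were called higher, while 2 of 8 further tested genes of the pathway, described with the other lists, were. The oxidative branch is represented among the 4 by G6pdx (glucose-6-phosphate dehydrogenase, the entry step) and Pgd (6-phosphogluconate dehydrogenase), the 2 enzymes that yield NADPH, and the other branch by Tkt (transketolase) and Taldo1 (transaldolase). Tkt had log2 levels of 15.48, 16.04 and 16.25 in WT and of 16.97, 17.11 and 16.69 in Zip13-KO, a log2 fold change of 0.998 ± 0.22 (limma adjusted p = 0.0191). Taldo1 had a log2 fold change of 0.71 ± 0.15 (adjusted p = 0.0162), from levels of 15.48, 15.93 and 15.99 to levels of 16.54, 16.56 and 16.43. Pgd had one of 0.74 ± 0.22 (adjusted p = 0.0422), from 13.06, 13.71 and 13.72 to 14.34, 14.41 and 13.97. G6pdx lay just above the fold threshold at 0.60 ± 0.13 (adjusted p = 0.0186), from 13.20, 13.62 and 13.54 to 14.07, 14.14 and 13.95. In all 4 genes WT replicate 1 was the lowest array. The Zip13-KO arrays lay above the WT arrays without overlap, as in 29.2% of all genes tested.

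The number of pentose phosphate genes called changed when arrays were left out. It was 1 without WT replicate 1, 3 without WT replicate 2, WT replicate 3 or Zip13-KO replicate 3, and it fell to 0 without Zip13-KO replicate 1 or 2. Without WT replicate 1 the log2 fold changes of G6pdx, Pgd and Taldo1 were 0.47, 0.53 and 0.55. Without Zip13-KO replicate 1 the limma adjusted p-values were 0.0657 for G6pdx, 0.124 for Pgd, 0.0688 for Tkt and 0.0621 for Taldo1, and the log2 fold changes were 0.59, 0.69, 0.97 and 0.69. With replicate 2 of that genotype left out instead, the adjusted p-values were 0.0684, 0.126, 0.0703 and 0.0619 and the log2 fold changes 0.55, 0.66, 0.90 and 0.68. Calls over all genes fell as well, from 1576 higher to 950 and 1016. All 4 stayed above 0 in every case.

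Glycogen genes had a median log2 fold change of 1.04, with 3 of 6 called higher. In all 6 every Zip13-KO array lay above every WT array, as in 29.2% of all genes tested. Gys1 encodes glycogen synthase of muscle and most other tissues, and its levels were 11.41, 12.17 and 11.98 in WT and 12.82, 12.78 and 12.77 in Zip13-KO, a log2 fold change of 0.94 ± 0.19 (limma adjusted p = 0.0164). Gbe1, the branching enzyme, had levels of 11.54, 12.51 and 12.68 in WT and of 13.64, 13.79 and 13.36 in Zip13-KO, a log2 fold change of 1.35 ± 0.31 (adjusted p = 0.0217). Pygl, the liver-type glycogen phosphorylase, had levels of 13.76, 14.44 and 14.48 in WT and of 15.39, 15.53 and 15.20 in Zip13-KO, a log2 fold change of 1.15 ± 0.21 (adjusted p = 0.0127). Genes of synthesis and of breakdown were therefore among those called.

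Gys2, the liver-type synthase, had the widest WT spread, with log2 levels of 9.36, 12.02 and 10.81 in WT and of 12.20, 12.63 and 12.10 in Zip13-KO. Its log2 fold change of 1.58 ± 0.64 did not pass the test (limma adjusted p = 0.101), and it passed without WT replicate 2, at 2.23. Pygm and Pygb, the muscle and brain phosphorylases, both had a log2 fold change of 0.54, with SE 0.17 and 0.15 and adjusted p-values of 0.04998 and 0.0374, and were not called because these changes were smaller than the fold threshold. The call of Pygl held without each array in turn. Gys1 and Gbe1 missed the threshold without Zip13-KO replicate 1 (adjusted p = 0.0607 and 0.0726) or Zip13-KO replicate 2 (0.0562 and 0.0743), so that 1 glycogen gene was called in either case, and without WT replicate 2 Gys2 and Pygb were added, for 5 in all.

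Isoforms of the same step were compared within each array, by the difference of their log2 values in WT and in Zip13-KO, over 25 pairs in 12 steps. With 3 arrays against 3, the smallest two-sided exact permutation p is 0.1, or 0.147 after adjustment over the 25 pairs, so no pair could pass the 0.05 threshold. In 17 pairs the genotypes did not overlap, which with 3 arrays against 3 is the same as reaching that smallest p. They include Fbp1 minus Fbp2, although Fbp2 passed the filter through Zip13-KO alone. The share among pairs of other genes was not computed, so this count is a description of the pairs only. No size is given for Fbp1 and Fbp2, since Fbp2 has only a bound in WT and Fbp1 was well above background on 2 of the Zip13-KO arrays. Hk2 exceeded Hk3 in its change by 2.90 ± 0.58 (SE), the change of Hk1 minus that of Hk2 was -1.96 ± 0.37, and Slc16a1 exceeded Slc16a3 by 2.29 ± 0.38. Among the glucose transporters, the change of Slc2a4 was larger than that of Slc2a1 by 1.23 ± 0.38 and than that of Slc2a3 by 1.49 ± 0.24. Pfkl and Pfkm exceeded the brighter Pfkp probe by 1.04 ± 0.14 and 0.79 ± 0.22, and Ldhb exceeded the brightest Ldha probe by 0.89 ± 0.12. Eno1 exceeded Eno3 by 0.81 ± 0.20, and Aldoa exceeded Aldoc by 1.22 ± 0.31. Pfkfb1, Pfkfb2 and Pfkfb3 exceeded Pfkfb4 by 1.56, 0.90 and 1.40.

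In the other 8 pairs the arrays of the genotypes overlapped. The differences were 0.25 ± 0.23 for Pfkl minus Pfkm (exact permutation p = 0.5, n = 3 and 3), 0.16 ± 0.21 for Pfkfb1 minus Pfkfb3 (exact p = 0.5) and -0.65 ± 0.57 for Gys1 minus Gys2 (exact p = 0.3). Larger relative to their errors were Pygl minus Pygm at 0.61 ± 0.38 and Slc2a1 minus Slc2a3 at 0.26 ± 0.16 (exact p = 0.2 for both), and Pfkfb2 minus Pfkfb3 at -0.50 ± 0.32 (exact p = 0.3). For Pgam1 minus Pgam2 and Pygm minus Pygb they were -0.04 ± 0.65 and -0.00174 ± 0.301, both with an exact p of 1. The wide error for Pgam2 came with the high value of Zip13-KO replicate 3 given above. These pairs are not shown to change alike, since their errors allow differences in either direction.

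**Figure D3:**
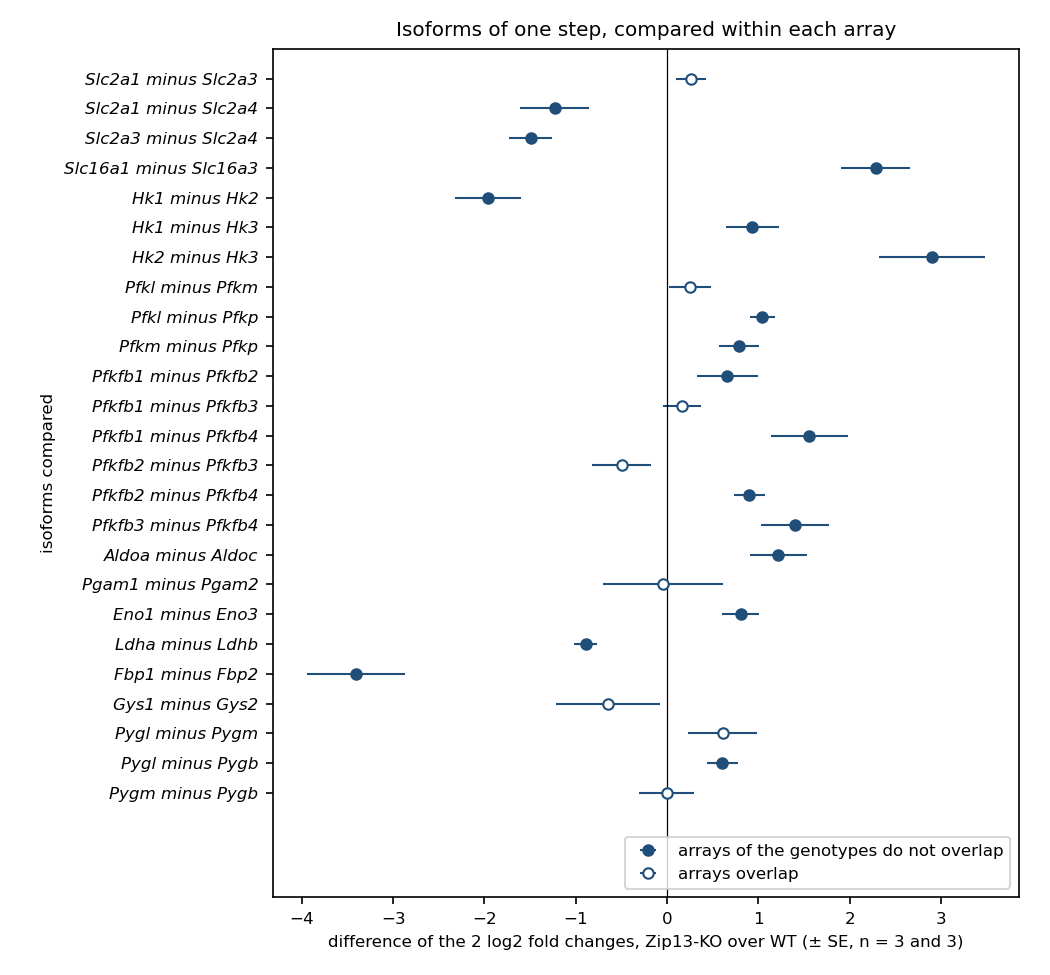
Each row is a pair of isoforms of 1 step, and the horizontal axis is the log2 fold change of the first isoform minus that of the second (Zip13-KO over WT, points with SE, n = 3 arrays per genotype). Filled points mark the 17 pairs in which the within-array differences of the genotypes did not overlap, with Hk2 minus Hk3 farthest right; the point for Fbp1 minus Fbp2 has no measured size, since Fbp2 was not well above background in WT.

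Genes beside the 41 in the same pathways were read in the same way. Of 88 further genes listed, 69 were tested, of which 20 were called higher and 2 lower with a median log2 fold change of 0.31. The 2 that were lower were Slc2a6 and Eno2. Slc2a5, the fructose transporter, had log2 levels of 8.33, 9.04 and 10.49 in WT and of 12.18, 12.23 and 11.07 in Zip13-KO, the largest change of this group at 2.54 ± 0.60 (limma adjusted p = 0.0235). Both subunits of the mitochondrial pyruvate carrier were called higher, Mpc1 at 1.11 ± 0.19 and Mpc2 at 1.16 ± 0.17, as was Ldhd, the dehydrogenase of D-lactate, at 1.19 ± 0.23. Ldhal6b, a lactate dehydrogenase-like gene, had a log2 fold change of 0.92 and Tigar, a phosphatase that lowers fructose-2,6-bisphosphate, one of 0.66. Pck1, the cytosolic phosphoenolpyruvate carboxykinase of glyceroneogenesis, rose by 0.71 ± 0.13, and G6pc, glucose-6-phosphatase, by 0.88 ± 0.20. The G6pc probe was dim, at log2 levels of 3.74, 4.01 and 3.55 in WT and of 4.45, 5.03 and 4.45 in Zip13-KO. Pck2 was lowest in its list at -0.11.

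Of 8 other pentose phosphate genes 2 were called higher, Shpk (sedoheptulokinase) at 0.87 and Rpe (ribulose-phosphate epimerase) at 0.61, and the lowest was Prps2 at -0.28. Among 21 other glycogen genes 6 were called higher and 0 lower. The largest change of these was that of Ppp1r3c, a glycogen-targeting subunit of protein phosphatase 1, at 1.43 ± 0.33 (limma adjusted p = 0.0213), and the called genes also included Ppp1r3d at 0.93, Nhlrc1 at 0.67, Pgm1 at 0.65 and Phkb at 0.62, while Pgm2 was lowest at -0.46. Of 14 regulators of glucose metabolism, 4 were called higher. They were Srebf1 at 1.29 ± 0.38 and Mlxipl at 1.24 ± 0.36, which encode transcription factors of lipogenic and glycolytic genes, Irs1 at 1.03 ± 0.17, an insulin receptor substrate, and Akt2 at 0.63 ± 0.10, the kinase downstream of it. Tbc1d1, a regulator of GLUT4 vesicles, was lowest at -0.41.

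**Figure D4:**
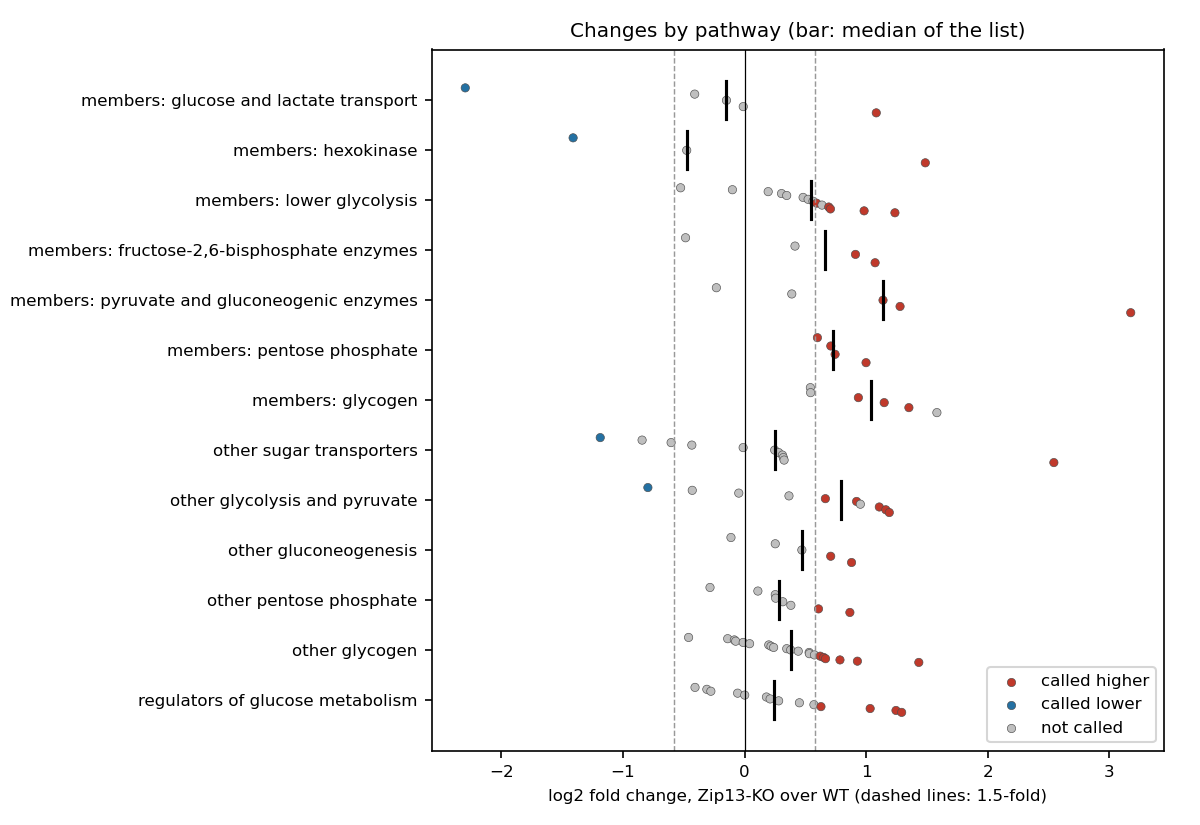
Each point is 1 gene, in rows by pathway (the 41 genes in the upper 7 rows, the 69 further genes below), and the horizontal axis is the log2 fold change of Zip13-KO over WT with dashed lines at 1.5-fold and a black bar at the median of each row. All 4 pentose phosphate genes in the upper rows lie right of the dashed line and are called, whereas the hexokinase and transport rows hold calls on both sides.

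Adipocyte and brown adipocyte markers moved in the direction of the rising genes. All 12 adipocyte markers were above 0 and 4 were called higher, with a median log2 fold change of 0.65, and their summed linear signal ranged from 633360 to 835110 in WT and from 952020 to 994610 in Zip13-KO, with Cfd and Fabp4 the brightest. All 10 brown and beige adipocyte markers were called higher, with a median of 2.22 and a summed signal of 36686 to 59389 in WT and of 165590 to 256430 in Zip13-KO. Stromal progenitor and fibroblast markers had a median of -0.74 with 4 of 10 called lower, and their sum reached from 214450 to 450000 in WT and from 184030 to 225780 in Zip13-KO. The medians were -0.39 for lymphocytes (1 of 9 lower), -0.68 for erythrocytes (1 of 5 lower), 0.37 for endothelium (2 of 8 higher) and 0.01 for mammary epithelium (0 of 6 called). The part of these shifts in the changes of the 41 genes was not tested.

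The RefSeq promoter table (GRCm38.p6) held the region from 250 bases before to 50 bases after a transcription start for 38 of the 41 genes, and was searched on both strands for 4 motifs. The E-box CACGTG, bound by basic helix-loop-helix factors, was found in 7 of the 38 genes, or 18.4%, and in 10.9% of 12126 tested genes with a promoter entry. The 7 were Slc16a1, Pfkm, Pfkfb2, Pfkfb3, Ldha, Pcx and Fbp2, of which Pfkm, Pfkfb3, Pcx and Fbp2 were called higher. The core ACGTG of the hypoxia response element, which every E-box of this form contains, was found in 57.9% of the 38 genes and 27.3% of tested genes. The GC box GGGCGG was found in 73.7% and 62.7%, and CCAAT in 47.4% and 42.2%. A match describes the letters of the window only, and genes with several starts had several windows. The 250 bases before the start are printed for the 4 genes called higher that hold an E-box, so that their settings can be compared, 5′ to 3′ on the strand of the gene with the E-box in capitals. They are chr13:62858401-62858650 (minus strand) for Fbp2, chr19:4510222-4510471 (plus strand) for Pcx, chr15:98092339-98092588 (plus strand) for Pfkm and chr2:11502091-11502340 (minus strand) for Pfkfb3.
Fbp2: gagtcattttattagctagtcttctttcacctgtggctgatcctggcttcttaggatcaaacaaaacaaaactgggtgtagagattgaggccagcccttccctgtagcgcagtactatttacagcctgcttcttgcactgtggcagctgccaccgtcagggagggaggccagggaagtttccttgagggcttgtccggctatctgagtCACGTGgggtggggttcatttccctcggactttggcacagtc
Pcx: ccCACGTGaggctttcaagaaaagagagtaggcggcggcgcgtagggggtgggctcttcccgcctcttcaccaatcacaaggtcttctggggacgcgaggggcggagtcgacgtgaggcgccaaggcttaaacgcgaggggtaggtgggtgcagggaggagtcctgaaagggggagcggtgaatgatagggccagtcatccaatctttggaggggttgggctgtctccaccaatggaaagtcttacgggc
Pfkm: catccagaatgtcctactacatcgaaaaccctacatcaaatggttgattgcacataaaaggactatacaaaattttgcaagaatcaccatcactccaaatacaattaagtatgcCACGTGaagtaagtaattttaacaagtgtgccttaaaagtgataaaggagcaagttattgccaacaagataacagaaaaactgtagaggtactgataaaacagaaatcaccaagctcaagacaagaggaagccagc
Pfkfb3: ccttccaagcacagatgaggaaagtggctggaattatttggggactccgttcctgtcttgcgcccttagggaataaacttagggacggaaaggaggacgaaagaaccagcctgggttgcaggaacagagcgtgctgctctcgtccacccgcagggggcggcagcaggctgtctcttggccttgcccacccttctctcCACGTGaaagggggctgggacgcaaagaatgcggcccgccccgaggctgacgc

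In the printed windows the E-box ended 36 bases before the start in Fbp2, 47 in Pfkfb3, 130 in Pfkm and 242 in Pcx. Pfkfb3, Pfkm and Pcx also had windows at other starts, and those held no E-box. It thus lay at no common distance in these 4 genes, and other genes called higher, such as Pfkl, Eno1 and Ldhb, held none in their windows.

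Calls held unevenly across the 21 called genes. Beside Fbp2, the genes called without each array in turn were Slc16a3, Hk3, Pfkl, Pfkm, Eno1, Ldhb and Pygl. Under all 20 alternative settings, which include a stricter adjusted p of 0.01 for the call, 4 were called, namely Pfkl, Pfkm, Eno1 and Ldhb. Fbp2 is left out of this count, since it passed the filter through Zip13-KO alone and could not be tested when every array had to be above background. For the 10 genes with several probes that passed the filter, all such probes of a gene had changes of the same sign.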

How the data were processed

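RNA of 3 WT and 3 Zip13-KO samples of iWAT was measured on Agilent 8x60K one-colour arrays. The authors deposited scanner output of Feature Extraction 11.5.1.1, whose processed signal is an intensity corrected for background but not normalized between arrays. The deposited values table holds log2 values, ordered within each array as the median signal without background correction (rank correlation 1) and quantile normalized. That table served only as an alternative.

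After log2 transformation of the processed signal, control spots and spots with outlying signal were removed, replicate spots of each probe were averaged, and arrays were quantile normalized, as in the supplementary methods. Quantile normalization holds the overall level equal between arrays, so changes are relative to the other genes. Probes had to be well above background throughout 1 genotype or both (33055 of 55681). Of all probes, 28331 were named through a RefSeq transcript, and the brightest kept probe stood for a gene. The number of arrays limits the precision.

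Genotypes were compared in R 4.3.3 by limma 3.58.1 (functions lmFit and eBayes), with Benjamini-Hochberg adjustment over 15314 genes. The script was tested on simulated data. Isoform pairs were compared with a two-sided exact permutation test in scipy 1.17.1. Alternatives concerned normalization, background correction, the filter, the choice of probe, the test, a replicate block, the threshold and leaving out each array, and the exclusion of spots with outlying local background was chosen after seeing the data. The genes named are all 41, Slc39a13, the called genes and extremes of each further pathway list, and the brightest markers. Extremes of marker lists were named after their values were seen. The 41 genes, the lists and the pairs were chosen with earlier results of these data known. Promoters of Slc2a3, Slc2a4 and Gys2 were not analysed here. Of the further called genes, 1 is not reported here by name.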

Additional observations from a re-analysis of the deposited data

How the results depend on the processing

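The count of the 41 genes called higher, 19 in the report, lay between 14 and 23 under the alternatives of normalization, background correction, filter, probe, prior and unadjusted test, and was 7 with the methods' t-test after Benjamini-Hochberg adjustment and 6 (with 0 called lower) at an adjusted p under 0.01. Leaving out 1 array gave 7 to 19 genes called higher and 2 to 3 called lower. It was lowest, at 7, without Zip13-KO replicate 1 or 2, when 2 arrays were left in that genotype. Over all genes, 1576 higher and 1282 lower became 703 and 503 at the stricter threshold, 1007 and 721 with the adjusted t-test, 950 and 762 without Zip13-KO replicate 1, and 1016 and 783 without Zip13-KO replicate 2. The labels give both genotypes the numbers 1 to 3. Same-numbered arrays had correlations of -0.02, 0.04 and -0.08 in their deviations from the group means. Arrays with different numbers had correlations from -0.17 to 0.18. With 3 arrays per genotype, these values cannot decide whether the arrays were paired. With the replicate number as a block, 13 genes were called higher and 2 lower. Reversals concerned genes and pairs whose value in the report was smaller in size than its SE. Slc16a1 was 0.0327 with normexp, 0.00349 without background correction, 0.0111 in the deposited table and -0.20 to 0.11 without 1 array. Eno3 ranged from -0.23 to 0.012 without 1 array. Pgam1 minus Pgam2 was 0.13 with 75th percentile scaling, 0.0376 with normexp, 0.0223 without background correction and -0.51 to 0.53 without 1 array. Leaving out 1 array gave -0.0142 to 0.28 for Pfkfb1 minus Pfkfb3 and -0.26 to 0.20 for Pygm minus Pygb. The cause of these changes was not tested. Signal over background limits the WT level of Fbp2, and Fbp1 and Fbp2 could not be tested when all 6 arrays had to be above background.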
